A study of Mus musculus with 12 samples.

Results

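The kinesin and cytoplasmic dynein genes were taken from the count files by name: every protein-coding gene whose GENCODE mouse name is Kif or Klc followed by a number or begins with Dync1 or Dync2, together with Dynll1, Dynll2, Dynlt1a, Dynlt3 and Dctn1 to Dctn6. The rule found 63 of the 55416 genes listed, and it used no measured value. The genes were followed in bulk RNA-seq of 6 pools of inner hair cells (IHCs) and 6 pools of outer hair cells (OHCs), the sensory cells of the cochlea, sorted at the day of birth (P0) from the organ of Corti of mice whose genotype is given as WT. Cells positive for Atoh1-GFP were collected as IHCs. Cells positive for Atoh1-GFP, for Insm1-GFP-Cre and for the R26-TdTomato reporter were collected as OHCs, so the IHC pools hold Atoh1-GFP cells in which the Insm1-driven recombinase had not switched on the reporter. By the methods of the study, cells of several pups, which were not sexed, went into a pool for chromatin profiling. The number of pups behind an RNA pool is not given in the sources used here, and the p-values measure the spread between these pools.

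Kinesins are ATPases that walk along microtubules, most of them towards the plus end, and carry vesicles, organelles and RNA away from the cell centre. Cytoplasmic dynein-1, with its activator dynactin, carries cargo the other way, and dynein-2 moves the retrograde trains of intraflagellar transport in cilia. Hair cells depend on such motors for the primary cilium, or kinocilium, that helps to orient the hair bundle, for the supply of their ribbon synapses and for the sorting of bundle and lateral wall proteins. Other kinesins work on the spindle and are used by dividing cells, which hair cells at birth no longer are.

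The 12 libraries held between 29564827 and 44017309 counts on genes. The labelled identities held by most markers that the sort did not use. All 4 IHC markers (Slc17a8, Otof, Tbx2 and Fgf8) were higher in the IHC pools by the same test as below. Of 4 OHC markers, Bcl11b and Neurod6 were higher in the OHC pools by that test. Insm1 was too, but the sort used it, so its difference was set in advance. Ikzf2 had a higher mean in the IHC pools and did not pass. IHC replicate 1 stood apart, with 56.9% of its counts on ribosomal RNA against 21.5% to 37.0% in the others, and with a TMM scaling factor of 0.486 against 0.902 to 1.23. Of the members tested, 17 of 52 had their highest IHC value in that library, so calls that change without it are given both ways. Markers of other cells also moved with cell type. Summed over 7 endothelial markers the OHC pools held 19.2 to 226 CPM, counts scaled to a library total of 1000000 after TMM scaling, and the IHC pools 0.196 to 5.06, and summed over 8 supporting cell markers the IHC pools held 354 to 795 CPM and the OHC pools 99.7 to 322. Of the supporting cell markers, Gjb2 (mean 216 CPM in IHCs and 30.3 in OHCs) and Sox2 (71.6 and 26.8) were higher in IHCs by the same test. Lfng (33.9 and 28.7), Jag1 (84.8 and 61.2) and Gjb6 (7.40 and 2.09) also had higher means in IHCs but did not pass. Hes5 (8.08 and 20.2), Hes1 (2.77 and 3.88) and Cdkn1b (50.9 and 51.6) had higher means in OHCs and did not pass. The part of these other cells in the results below was not tested.

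Of the motor genes, 3 passed the test between the cell types. Of the 63 members, 52 passed the filter on low counts and were tested by edgeR's quasi-likelihood test, with p-values adjusted by Benjamini-Hochberg over all 13269 genes tested and a threshold of 0.05. Differences are log2 fold changes of OHCs minus IHCs, so a negative value means a higher level in IHCs. Kif21b and Kif26b were higher in IHCs and Dync1i1 was higher in OHCs. These are 2 of 52 members, or 3.85%, where 3.81% of all genes tested were called higher in IHCs, and 1 of 52, or 1.92%, where 2.44% of all genes were called higher in OHCs. The share of motor genes called was therefore close to that of all genes in both directions. The median difference of the 52 members was -0.28, beside a median of -0.04 over all genes tested. With 34 members below 0 and 18 above, 65.4% were fitted towards IHCs, where 51.8% of all genes tested were. At an unadjusted p under 0.05 there were 11 members, or 21.2%, beside 21.8% of all genes, whose split by direction is not given here. Of the 11 members, 10 lay towards IHCs. Besides the called genes these were Kif16b, Kif21a, Kif1a, Kif19a, Dync1li1, Kif3b, Kif3c and Kif1c, all 8 fitted below 0. The lists of kinesin-1 heavy and light chains, division kinesins, dynein-2, dynein light chains and dynactin each had 0 genes at that p by edgeR and 0 called by DESeq2.

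Of the members that separated the cell types, those with a RefSeq promoter window have the following 250 bases upstream of the annotated start (GRCm38.p6), shown because they are the sequence next to the starts of the genes whose levels differed or did not overlap. Capitals mark the letters of 3 motifs, searched on both strands: CAGCTG, an E-box of the kind bound by bHLH factors such as Atoh1, GGGCGG, the GC box, and GTTGCC, a half-site of RFX factors. No matches overlapped one another in these windows. Kif26b lies on the plus strand at chr1:178528875-178529124, Kif16b on the minus strand at chr2:142901465-142901714 and Dync1i1 on the plus strand at chr6:5725389-5725638. Kif21b had no entry in the promoter table.
Kif26b: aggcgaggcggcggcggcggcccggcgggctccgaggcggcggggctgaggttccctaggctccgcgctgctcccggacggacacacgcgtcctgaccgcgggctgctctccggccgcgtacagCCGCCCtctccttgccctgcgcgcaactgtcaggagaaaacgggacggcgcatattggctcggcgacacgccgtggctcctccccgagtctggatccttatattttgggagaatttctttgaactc
Kif16b: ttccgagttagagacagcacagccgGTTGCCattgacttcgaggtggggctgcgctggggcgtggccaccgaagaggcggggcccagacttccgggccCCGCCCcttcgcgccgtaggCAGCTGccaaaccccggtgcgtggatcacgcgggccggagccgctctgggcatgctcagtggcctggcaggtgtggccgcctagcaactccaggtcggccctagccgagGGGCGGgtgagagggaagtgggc
Dync1i1: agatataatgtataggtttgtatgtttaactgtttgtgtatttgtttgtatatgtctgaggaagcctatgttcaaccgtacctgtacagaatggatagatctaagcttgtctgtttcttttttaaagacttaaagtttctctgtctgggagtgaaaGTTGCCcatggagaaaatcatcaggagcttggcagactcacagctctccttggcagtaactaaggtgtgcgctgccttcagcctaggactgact
The windows of Kif26b and Kif16b were rich in G and C, at 68.4% and 70.4%, against 40.8% in that of Dync1i1 and a median of 52.4% over all windows. The GC box was found once for Kif26b, 126 bases before the start, and at 2 places for Kif16b, and it occurred in 32.7% of the 32851 windows of this length. Kif16b alone of the 3 held the E-box, 132 bases before its start, which 13.0% of all windows held. The RFX half-site lay 225 bases before the start of Kif16b and 94 bases before that of Dync1i1, and was found in 10.4% of all windows. Over the 51 windows of the 45 members in the table, 58.8% held the GC box, 25.5% the RFX half-site and 7.84% the E-box. These matches are a description of letters and no evidence of binding.

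Kif21b, a kinesin-4 motor that both walks on microtubules and alters the growth of their plus ends, gave the clearest difference. In IHC pools its level was 247 CPM at the lowest, 362 at the median and 457 at the highest, and in OHC pools 93.0, 136 and 223. Every IHC pool lay above every OHC pool. The mean was 362 ± 92.0 CPM in IHCs and 139.8 ± 45.4 in OHCs (SD, n = 6 each), a difference of -1.37 (SE 0.24, adjusted p = 0.00117 by edgeR's quasi-likelihood test), or 2.59-fold higher in IHCs. The gene (ENSMUSG00000041642) lies on chromosome 1 at 136059098 to 136105763 of GRCm39, on the plus strand, and antisense genes share 2.56% of its exonic bases. The difference stayed past the threshold when any of the 12 pools was left out, between -1.57 and -1.28. In bulk pools, fewer cells that express a gene and less of its RNA per cell cannot be told apart.

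The neuronal intermediate filament genes Nefl and Nefm were higher in IHC pools as well, so the list of spiral ganglion neuron markers summed to 809 to 1494 CPM there and 216 to 433 CPM in OHC pools. The other 4 neuronal markers of that list (Prph, Slc17a6, Stmn2 and Gap43) were at most 0.890 CPM in any IHC pool and at most 5.60 CPM in any OHC pool, with higher means in OHCs for all 4. For Slc17a6 (up to 4.67 CPM in OHC pools) every OHC pool lay above every IHC pool, but only by a margin near 0 counts. The lowest OHC pool had 0.0305 CPM and the highest IHC pool 0.0244 CPM, which was 1 count. Both values are below the 0.0647 CPM that 3 counts would give at the lowest, and Slc17a6 was not tested. Among kinesin-4 genes, Kif21a, the closest relative of Kif21b, had 109 to 188 CPM in IHC pools and 77.3 to 130.0 CPM in OHC pools, with 5 of 6 IHC pools above the highest OHC pool. Its difference of -0.61 (SE 0.21) did not pass the test (adjusted p = 0.0921, edgeR). It passed without IHC replicate 1 (-0.70, adjusted p = 0.0377 by the same edgeR test). Kif27 and Kif7, the kinesin-4 members tied to Hedgehog signalling and cilia, had fitted differences of -0.27 (SE 0.25) and -0.31 (SE 1.12) and did not pass.

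Kif26b, an atypical kinesin that binds microtubules without walking on them and acts in Wnt5a and Ror signalling, had the larger fitted difference but a wider spread. Its level was 41.4 CPM at the lowest, 59.8 at the median and 135 at the highest in IHC pools, and 1.87, 17.1 and 28.8 CPM in OHC pools. The pools of the 2 cell types did not overlap. The means were 69.8 ± 33.6 CPM in IHCs and 16.4 ± 11.9 in OHCs (SD, n = 6 each), a difference of -2.08 (SE 0.52, adjusted p = 0.0190, edgeR), or 4.24-fold higher in IHCs. The highest value came from IHC replicate 1. Without that pool the difference was -1.80 and still called (adjusted p = 0.0400 by the same edgeR test), while without OHC replicate 2 the adjusted p rose to 0.0502 by that test and the call was lost. The gene (ENSMUSG00000026494, chromosome 1 from 178356690 to 178766765, plus strand, GRCm39) shares 7.51% of its exonic bases with an antisense gene, Gm16564. Of the 8 supporting cell markers, 2, Sox2 and Gjb2, were higher in IHC pools by the same edgeR test. The pool with the highest supporting cell sum, IHC replicate 5 at 795 CPM, had 52.0 CPM of Kif26b. This is 1 pool, and the part of supporting cells in the level of Kif26b was not tested.

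Kif16b, a kinesin-3 motor that carries early endosomes towards the plus end through a lipid-binding PX domain, was the third member whose pools did not overlap. It had 14.7, 25.1 and 33.9 CPM at the lowest, median and highest in IHC pools, and 3.57, 10.5 and 14.6 CPM in OHC pools. The lowest IHC pool and the highest OHC pool lay almost together. The difference was -1.39 (SE 0.46) with an adjusted p of 0.0752 by edgeR's quasi-likelihood test, so it was not called, although it passed without IHC replicate 1 (-1.52, adjusted p = 0.0495 by the same test) and by edgeR's exact test on all pools (adjusted p = 0.0398). Altogether 3 members had every IHC pool above every OHC pool, or 5.77% of those tested beside 2.37% of all genes tested, and 0 had every OHC pool above every IHC pool beside 2.22%. The gene (ENSMUSG00000038844) lies on the minus strand of chromosome 2 at 142459394 to 142743546 (GRCm39).

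Dync1i1, the intermediate chain of dynein-1 that is typical of neurons, was the only member called higher in OHCs, and it was a low one. Its counts were 2 to 26 in the IHC pools and 17 to 500 in the OHC pools. As levels these were 0.0504, 0.237 and 0.796 CPM at the lowest, median and highest in IHCs, and 0.398, 3.82 and 14.5 CPM in OHCs. In 5 of 6 OHC pools the level was above the highest IHC pool, and OHC replicate 6 lay inside the IHC range. The difference was 4.04 (SE 1.08, adjusted p = 0.0291 by edgeR's quasi-likelihood test). The call was lost without any of 6 pools by the same edgeR test: without IHC replicates 1 to 4 the adjusted p was 0.0515, 0.0545, 0.0569 and 0.0541, and without OHC replicates 2 and 4 it was 0.0610 and 0.0840. The OHC pool with the highest endothelial sum, OHC replicate 3 at 226 CPM, had 4.21 CPM of Dync1i1, while OHC replicate 4, the highest for Dync1i1, had an endothelial sum of 72.9 CPM. Of the neuronal markers, Slc17a6 and Stmn2, neither of them tested, had higher means in OHC pools (1.09 ± 1.78 and 1.37 ± 2.23 CPM, SD) than in IHC pools (0.0041 and 0.163 CPM). Nefl and Nefm of the same list went the other way, with means of 431 and 763 CPM in IHC pools and 106 and 207 CPM in OHC pools. The part of endothelial or neuronal cells in the level of Dync1i1 was not tested. The gene (ENSMUSG00000029757) lies on chromosome 6 at 5725491 to 6029181 of GRCm39, on the plus strand.

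**Figure D1:**
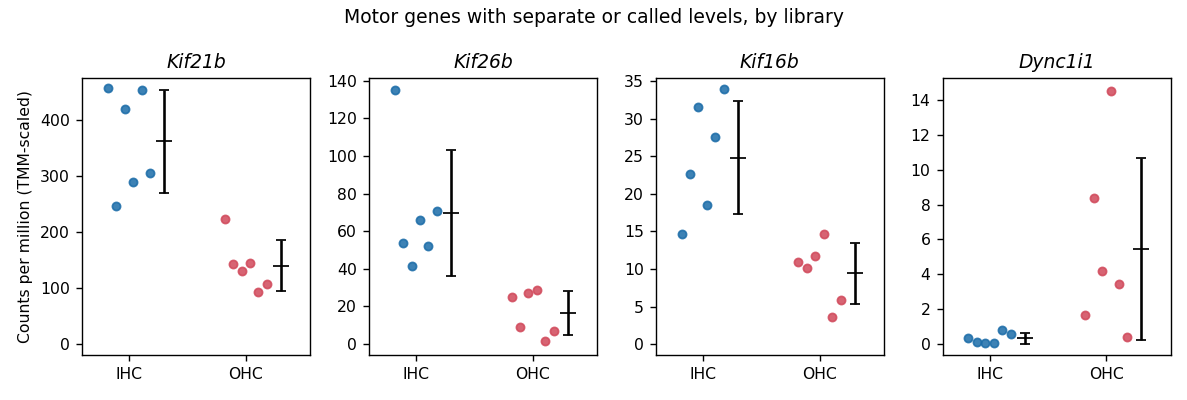
Level of Kif21b, Kif26b, Kif16b and Dync1i1 in each pool, in TMM-scaled CPM on a linear axis that differs between panels; points are the 6 IHC (blue) and 6 OHC (red) pools, and the bar beside them is the mean ± SD. IHC and OHC pools do not overlap for the first 3 genes (247 to 457 against 93.0 to 223 CPM for Kif21b), and 5 of 6 OHC pools lie above all IHC pools for Dync1i1.

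Levels were set side by side per length, as CPM divided by the kilobases of annotated exon (CPM per kb). That length is the union of all annotated exons, 1807 bases for Dctn3, 11032 for Dctn2 and 15843 for Dctn4. It can exceed the length of the transcripts in use, which was not measured, so the order of genes on this scale depends on the annotation. On this scale Dctn3, the smallest subunit of the dynactin shoulder, had the highest mean in both cell types, at 110.5 ± 74.7 in IHCs and 172 ± 32.1 in OHCs (SD, n = 6 each). In IHCs it was followed by Kif19a (59.2 ± 32.1), Kif1a (48.0 ± 11.98), Dync1h1 (43.3 ± 12.1) and Dynlt3 (32.2 ± 14.5). In OHCs Dync1h1 came second (37.2 ± 3.15), before Kif19a (35.5 ± 6.36), Kif1a (33.7 ± 5.29) and Dynlt3 (33.1 ± 13.0). The first place of Dctn3 in IHCs was within the spread: Kif19a was the higher of the pair in 2 of 6 IHC pools, and without IHC replicate 1 their means were 82.8 ± 34.9 and 47.8 ± 17.7 (n = 5). In OHCs Dctn3 was above Kif19a in every pool. Neighbours in these orders after Dctn3 lay within 1 SD of each other. Kif21b stood at position 6 in IHCs (28.3 ± 7.20 CPM per kb) and at position 18 in OHCs (10.9 ± 3.55). The sum over all 63 members was 661 ± 149 CPM per kb in IHCs and 627 ± 59.2 in OHCs, with ranges of 571 to 962 and 567 to 704 that overlapped. Without IHC replicate 1 the IHC sum was 601 ± 25.0 (n = 5), below the OHC mean. This order of the sums came from Dctn3 (82.8 in these IHC pools and 172 in OHCs), whose gap was wider than that of the sums. The other members together had the higher mean in IHCs.

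**Figure D2:**
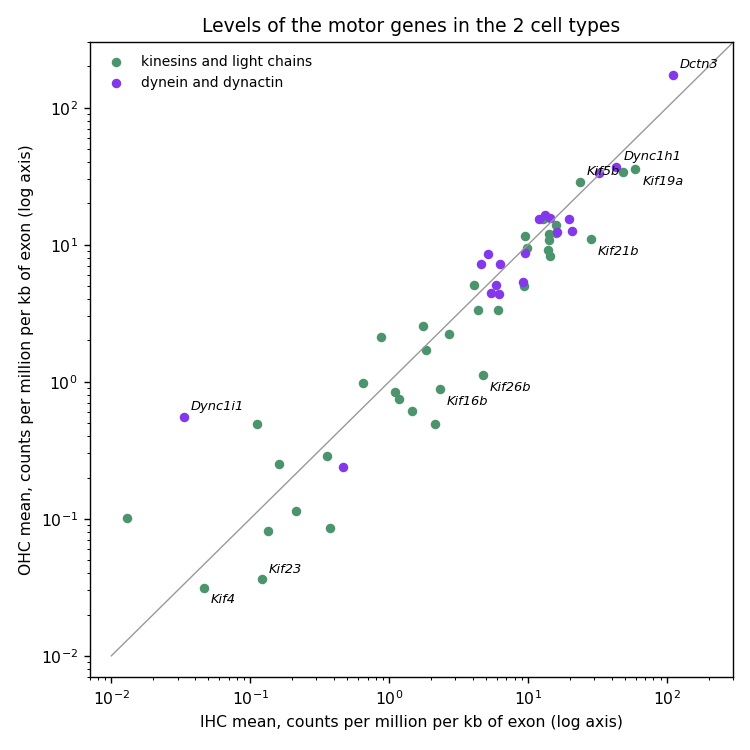
Mean level of the motor genes in IHCs (horizontal) and OHCs (vertical), in CPM per kb of exon on log axes; each point is a gene, green for kinesins and their light chains and purple for dynein and dynactin, and the line marks equal levels. The plot holds 56 members, leaving out 7 with a mean of at most 0.01 in a cell type; Dctn3 is at the top, and Kif21b, Kif26b and Kif16b lie below the line and Dync1i1 above it.

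Kinesin-1, the main carrier of mitochondria and vesicles, is made of heavy chains (Kif5) that walk and light chains (Klc) that hold cargo. Kif5b, the heavy chain used by most cell types, had 161 to 379.8 CPM in IHC pools, with a median of 323, and 308 to 468 CPM in OHC pools, with a median of 366. The lowest of the 12 values came from IHC replicate 1, and the groups overlapped. The difference of 0.29 (SE 0.21) was not called and was 0.15 without that pool. The 3 heavy chains ranged from -0.38 for Kif5c to 0.60 for Kif5a, and none of them passed (lowest adjusted p = 0.314, edgeR). Klc2, the highest light chain, had 30.7 to 141 CPM in IHC pools and 6.20 to 106 in OHC pools, a difference of -0.82 (SE 0.53) that was not called. It was -0.45 without IHC replicate 1 and -1.50 without OHC replicate 5. The 4 light chains ranged from -0.82 to 1.29 with none called. Klc2 and Klc3 share 21.4% and 34.4% of their exonic bases with antisense genes, and the strand setting of the counting is not given in the sources used here.

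Kinesin-2 drives the outward trains of intraflagellar transport along the ciliary axoneme. Its Kif3a subunit had 102 to 163 CPM in IHC pools, with a median of 119, and 41.3 to 147 CPM in OHC pools, with a median of 106. The groups overlapped, and the difference was -0.21 (SE 0.26). All 4 kinesin-2 genes were fitted below 0, with a median of -0.88, and none passed the test (lowest adjusted p = 0.165, edgeR). Kif3b (-0.90, SE 0.37) and Kif3c (-0.87, SE 0.37) each had 3 of 6 IHC pools above the highest OHC pool. Kif3c shares 39.85% of its exonic bases with antisense genes, and the strand setting is not given, so its value is uncertain. Dynein-2 returns these trains to the cell body. Its heavy chain Dync2h1 had 158 to 333 CPM in IHC pools and 241 to 298 CPM in OHC pools, a difference of 0.13 (SE 0.21, or 0.03 without IHC replicate 1), and the 4 dynein-2 genes ranged from -0.38 to 0.13 with none called.

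Kinesin-3 motors carry synaptic vesicle precursors, dense-core vesicles and endosomes. Kif1a, the best known axonal member, had 420.1, 472 and 768 CPM at the lowest, median and highest in IHC pools, and 289, 354 and 447 CPM in OHC pools. In 4 of 6 IHC pools it was above the highest OHC pool, and the difference of -0.51 (SE 0.19) was not called (adjusted p = 0.124, edgeR). Kif1b, which carries mitochondria and vesicles, was fitted the other way at 0.29 (SE 0.19). The 7 kinesin-3 genes ranged from -2.12 to 0.54, with 3 below 0 and 4 above. The lowest of these, Kif1c, rested on IHC replicate 5, which had 79.0 CPM where no other pool exceeded 10.2.

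The remaining kinesins include microtubule depolymerases and ciliary motors. Kif19a, which shortens microtubules at the tips of motile cilia, had 129 to 473 CPM in IHC pools, with a median of 202, and 114 to 169.6 CPM in OHC pools, with a median of 147. Its highest value came from IHC replicate 1, and the difference of -0.74 (SE 0.28) was not called (adjusted p = 0.130, edgeR) and was -0.44 without that pool. All 6 tested genes of this mixed list were fitted below 0, with a median of -0.71, and Kif26b was the only 1 called. The list also holds Kif12 and Kif2b, with 0 counts in every library, where 3 counts would be 0.0647 to 0.196 CPM.

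Most kinesins of cell division were low. Of 13 such genes 8 were not tested, and in those 8 the highest count in any library was 95. The highest was Kif24, a centriolar kinesin that holds back cilium formation, at 13.8 to 72.8 CPM in IHC pools and 10.1 to 59.4 CPM in OHC pools, and its difference was -0.37 (SE 0.47). Next came Kif20a, a motor of the late spindle, at up to 13.5 CPM, which shares 61.5% of its exonic bases with antisense genes. Kif11, the spindle motor also known as Eg5, had 0.0545 to 2.85 CPM in IHC pools and 0.945 to 12.5 in OHC pools, and its difference of 2.11 (SE 1.08) was not called (adjusted p = 0.263, edgeR). None of the 5 tested genes of the list passed. Summed over 12 markers of cycling cells, IHC pools held 3.005 to 20.8 CPM and OHC pools 9.16 to 29.1. Of the 12 markers 4 were tested, 0 were called by edgeR and 0 had an unadjusted p under 0.05. DESeq2 called 2 of the 12. Top2a, Ccnb1, Ccnb2 and Cdc20 had higher means in IHC pools, and the other markers in OHC pools. Cdk1, which was not tested, had 0 counts in every IHC pool and 0.0305 to 1.85 CPM in OHC pools. Its lowest OHC value is below the 0.0647 CPM that 3 counts would give at the lowest. OHC replicate 3 had the highest value of both Kif11 (12.5 CPM) and the cycling markers (29.1 CPM) among all pools. OHC replicate 2, with a cycling sum of 22.8 CPM, had the lowest Kif11 of the OHC pools, at 0.945 CPM. The part of cycling cells in the level of Kif11 was not tested.

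The heavy chain of dynein-1, Dync1h1, had 580.5 to 1185 CPM in IHC pools, with a median of 707, and 588 to 761 CPM in OHC pools, with a median of 657. The highest value came from IHC replicate 1, and the difference was -0.22 (SE 0.18, adjusted p = 0.524, edgeR), or -0.065 without that pool. The other chains that build the dynein-1 tail were fitted at -0.50 (SE 0.27) for the broadly used intermediate chain Dync1i2, -0.72 (SE 0.29) for the light intermediate chain Dync1li1 and 0.22 (SE 0.23) for Dync1li2, and none of these passed. Of the light chains, Dynlt3 was the highest, with 46.2 to 135 CPM in IHC pools and 35.9 to 128 in OHC pools, and its difference was 0.04 (SE 0.33). That value crossed 0 in 7 of the 12 fits without 1 pool, so no direction is given. Dynlt1a, at most 4.57 CPM, has close copies in the genome that can split its reads, and its value is uncertain.

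Dynactin couples dynein to cargo and makes it walk far. Dctn3 had 87.4, 167 and 449.8 CPM at the lowest, median and highest in IHC pools, and 270.4, 276 and 400.2 CPM in OHC pools. IHC replicate 1 held the highest of all values and the other 5 IHC pools lay below the lowest OHC pool. The difference was 0.64 (SE 0.32) and was not called (adjusted p = 0.250, edgeR), but without IHC replicate 1 it was 1.05 and passed (adjusted p = 0.0123, edgeR). The 6 dynactin genes ranged from -0.79 to 0.74 with none called, and 4 of them, Dctn1, Dctn3, Dctn5 and Dctn6, were fitted above 0. Dctn2 was also set by IHC replicate 1, at 318 CPM against 35.9 to 83.2 CPM in the other IHC pools.

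**Figure D3:**
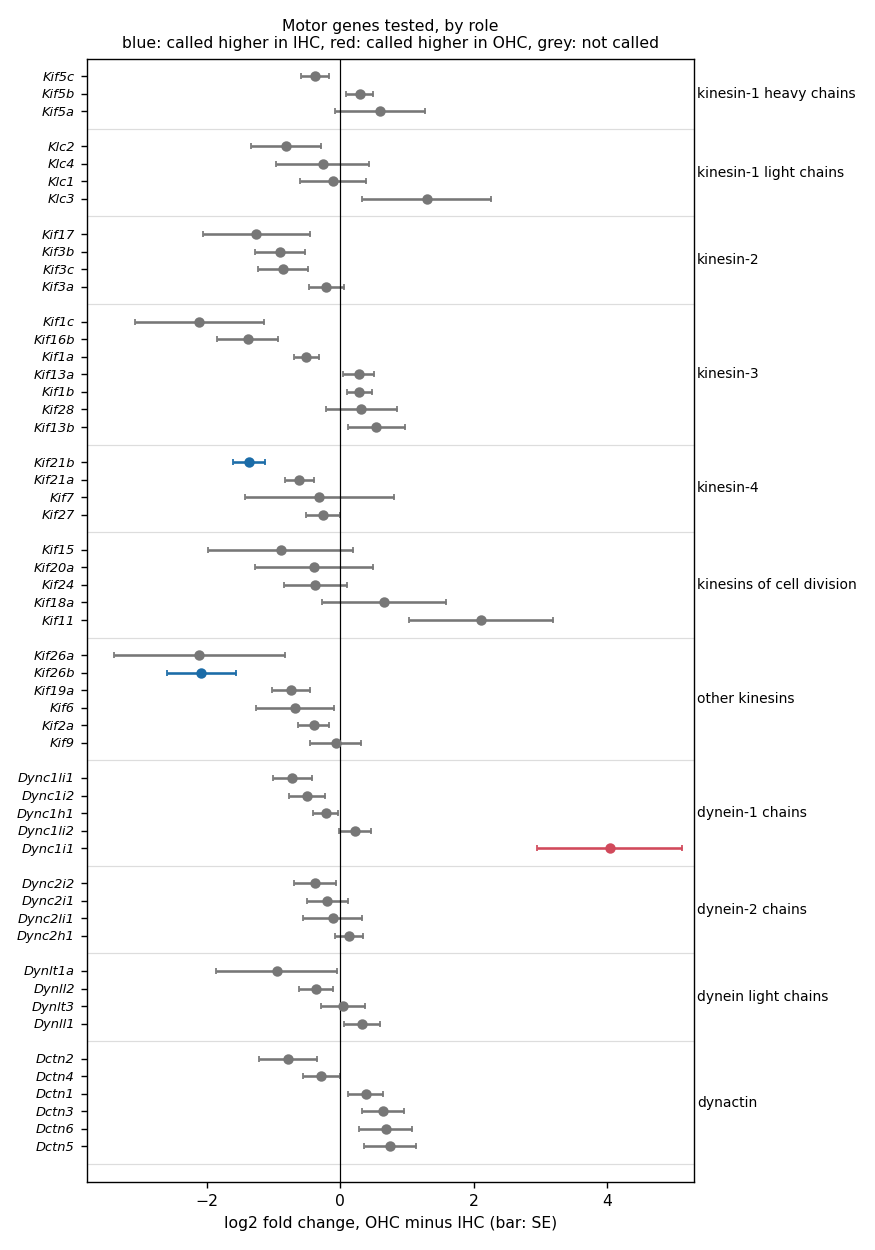
Fitted log2 fold change of the 52 tested members, OHC minus IHC, in groups by role; points are the fitted values, horizontal bars the standard error, blue marks genes called higher in IHCs, red those called higher in OHCs and grey those not called. Kif21b (-1.37), Kif26b (-2.08) and Dync1i1 (4.04) are the coloured points, and 34 of the 52 lie left of 0.

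Within a family, the share of each paralogue is free of the scaling between libraries. Shares of the level per length were compared for 19 paralogues in 10 families by a two-sided exact permutation test over the 12 pools (every split of the pools, smallest possible p = 0.00216), with Benjamini-Hochberg adjustment over the 19. In OHCs Kif1b took 25.3 ± 4.08% of the Kif1 family and in IHCs 16.4 ± 4.38% (SD, n = 6 each, exact p = 0.00649, adjusted p = 0.0411). Kif1b ranged from 21.1% to 31.9% in OHC pools and from 9.58% to 23.1% in IHC pools, and 4 of 6 OHC pools lay above every IHC pool. Among the light intermediate chains, Dync1li2 took 36.6 ± 4.76% in OHCs and 25.4 ± 7.42% in IHCs (exact p = 0.00433, adjusted p = 0.0411). Of the dynein-1 intermediate chains, Dync1i2 took 89.8 ± 8.82% in OHCs and 99.5 ± 0.434% in IHCs (exact p = 0.00433, adjusted p = 0.0411), which is the same measurement as the rise of Dync1i1 seen from the other chain.

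These 3 shares lost their call in most of the tests without 1 pool. Without IHC replicates 1, 3, 4 or 6, or OHC replicates 1, 3, 4 or 5, 0 of the 19 shares passed the exact test after adjustment, while 6 passed without IHC replicate 5 and 5 without OHC replicate 2. Kif21b took 66.4 ± 7.67% of the Kif21 pair in IHCs and 53.9 ± 7.38% in OHCs, which did not pass (exact p = 0.0260, adjusted p = 0.0705). For the kinesin-1 heavy chains the OHC pools had more Kif5b (70.7 ± 5.26% against 61.0 ± 6.91%) and less Kif5c (26.9 ± 4.76% against 37.3 ± 7.82%), neither past the threshold (adjusted p = 0.0685 for each, exact test). The share of Dynll2 among the LC8 light chains was 60.6 ± 8.31% in IHCs and 47.7 ± 6.42% in OHCs (exact p = 0.0152, adjusted p = 0.0685), and Dynll1 shares 37.4% of its exonic bases with antisense genes.

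**Figure D4:**
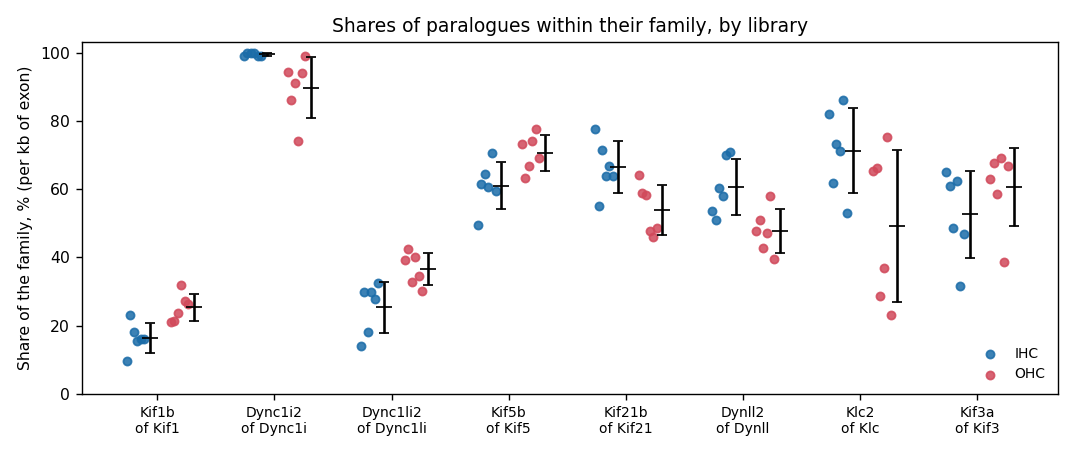
Share of 8 paralogues in the summed level per kb of exon of their family, in percent, in the 6 IHC (blue) and 6 OHC (red) pools, with the mean ± SD beside the points. Kif1b (16.4% and 25.3%), Dync1i2 (99.5% and 89.8%) and Dync1li2 (25.4% and 36.6%) differed between IHCs and OHCs with all 12 pools; the other 5 did not pass the test.

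Genes that work with these motors but fall outside the naming rule were described by lists. Counts called by DESeq2 are given without the share of all genes it called, so they have no background beside them. Of 21 further subunits and regulators 20 were tested, and 1, Cenpe, the kinetochore kinesin, was higher in OHCs by edgeR, where 2.44% of all genes were. Cenpe had 2.14 ± 1.79 CPM in IHCs and 15.6 ± 11.7 in OHCs (adjusted p = 0.0472, edgeR), and DESeq2 called 2 genes of this list. Of 30 adaptors that join cargo to motors 27 were tested and 3 were higher in IHCs by edgeR, where 3.81% of all genes were, with 5 called by DESeq2: Madd, the Rab3 exchange factor that links Kif1 motors to synaptic vesicle precursors (-0.91, SE 0.21), Mapk8ip1, a scaffold on kinesin-1 light chains (-1.72, SE 0.43), and Plekhm1, a lysosomal adaptor (-1.39, SE 0.37). Of the intraflagellar transport genes 23 of 24 were tested and 0 were called by edgeR in either direction. At an unadjusted p under 0.05 by edgeR there were 5 of the 23, beside 21.8% of all genes tested. DESeq2 called 3, and the median difference was 0.00. For the microtubule tracks, of 25 tubulins and microtubule-associated proteins 22 were tested, 6 were higher in IHCs and 1 in OHCs by edgeR, beside 3.81% and 2.44% of all genes, with 9 called by DESeq2, and the median was -0.60. The 3 with the smallest p were Tubb4b (567 ± 256 CPM in IHCs and 168 ± 47.0 in OHCs), Tuba1a (725 ± 96.3 and 339.8 ± 53.7) and Tuba4a (128 ± 16.3 and 63.95 ± 12.8), all tubulin subunits whose close copies can split reads, and for each of these every IHC pool lay above every OHC pool. Tubb2b was the tubulin higher in OHCs (1.30, SE 0.33).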

How the data were processed

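RNA-seq counts of 6 IHC and 6 OHC pools were analysed. Per the labels and the study's methods, the authors trimmed reads with Trimmomatic, aligned them with STAR in 2 passes to GRCm39 and counted reads per gene with HTSeq in intersection-nonempty mode against GENCODE vM27, and deposited whole-number counts. Tool versions and the strand setting are not given in the sources used here. Identifiers were matched to GENCODE vM39 (98.8% of genes, 99.967% of counts) for names, positions and exon lengths. HTSeq summary lines (24.2% to 46.1% of a library) were left out.

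The main test was edgeR 4.0.16 (quasi-likelihood, TMM, filterByExpr at its defaults of 10 counts and a total of 15). Tested on simulated data with 200 of 13269 genes changed 4-fold, it recovered 52.0% with 6 false calls. CPM are TMM-scaled, and CPM per kb divide them by the union of exons. Paralogue shares were compared by exact permutation.

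Genes were named with values if past the threshold, if the pools did not overlap, or if highest by TPM in 1 of 11 role lists, which gave 14. Others beside them were chosen after their values were seen. A marker gene of the lists is not reported here. Members and lists were chosen with earlier results of these data known. In the intraflagellar transport list 2 genes carry their current names (Ift25, Ift56). Alternatives were RLE factors, DESeq2 1.42.0, edgeR's exact test, other filters, the replicate number as a block and leaving out each pool. Shares of all genes called are those of the main test only.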

Additional observations from a re-analysis of the deposited data

Results flagged for a closer look

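Within the 28 sets of 6 pools of the named members, 3 held a pool whose distance to its nearest neighbour was more than 0.625 of the range (Dixon's criterion), all of them IHC replicate 1, the pool with the largest share of ribosomal RNA. Chance alone marks about 1 in 20 sets. Dync1h1 was 1185 CPM there and next highest at 797 CPM. Kif26b was 135 CPM there and next highest at 70.7 CPM, and the IHC pools without it still lay above all OHC pools. Kif5b was lowest there, at 161 CPM, with the next pool at 302 CPM. What set this pool apart was not tested.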

How the results depend on the processing

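Kif21b stayed past the threshold in all 18 alternative fits. The count of members higher in IHCs was 2 and rose to 4 with DESeq2, which added Kif16b (adjusted p = 0.00176) and Kif21a (adjusted p = 0.00630), and to 3 with edgeR's exact test, which added Kif16b (adjusted p = 0.0398). The count ranged from 1 to 4 over the fits without 1 pool. The shares of all genes called in these other fits are not given here, so the rises have no background beside them. The count higher in OHCs was 1, fell to 0 with at least 10 counts in every library, where Dync1i1 is left out by construction, fell to 0 with the replicate block, and ranged from 0 to 1 without 1 pool. Without IHC replicate 1 the OHC member called was Dctn3 in place of Dync1i1. The median difference ranged from -0.31 to -0.22 without 1 pool. Kif21b ranged from -1.57 to -1.28 and Dynlt3 from -0.11 to 0.22, so Dynlt3 changed sign. The shares past the threshold fell from 3 to 0 with the replicate block (exact sign-flip permutation, smallest p = 0.0312, at which at least 12 of the 19 shares would be needed for any to pass, so that 0 says nothing about stability) and ranged from 0 to 6 without 1 pool. The causes were not tested. Same-numbered IHC and OHC pools did not deviate together (correlations of -0.031 to 0.018, and 0 of 6 numbers matched best with their own), so the numbers were not used as pairs. Under the block Dync1i1 had an adjusted p of 0.122 (edgeR). Genes at a few CPM, such as Dync1i1, Kif11 and Kif15, had standard errors near 1 on the log2 scale, so only large differences were detectable there.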
